A study of Homo sapiens with 8 samples.

Results

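The ephrins and Eph receptors described here are 10 genes, 4 ephrins (EFNA1, EFNA5, EFNB1 and EFNB2) and 6 Eph receptors (EPHA1, EPHA2, EPHA4, EPHB2, EPHB3 and EPHB4). They were taken by gene symbol from the 60554 gene rows of bulk RNA-seq count tables of docetaxel resistant and sensitive prostate cancer cells. All 10 had a row, and all 10 passed the filter on low counts that left 20238 genes to be tested. The genes were picked because earlier values of these libraries, resistant against sensitive within each line, were known, so those differences are given as a description, with no p-value for any of the 10.

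The cells were DU145 and PC3, human prostate cancer lines established from metastases, each as a docetaxel resistant variant and as its sensitive parent. DU145 resistant and PC3 resistant cells were kept in medium with 10 nM docetaxel, a drug that stabilises microtubules, whereas DU145 sensitive and PC3 sensitive cells were kept in medium with 0.1% DMSO, the solvent of the drug. All 4 groups grew in RPMI with serum, and each group had 2 libraries, for which total RNA was put through a SMART-seq mRNA kit. Each resistant variant is 1 line derived from its parent. For these bulk libraries, the sources used here do not say whether a group's 2 libraries had separate cultures behind them, or whether the drug was withdrawn before RNA extraction. The p-values therefore measure only the spread between these libraries, which may be technical.

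Total counts were 31685148 to 43045127 per library, and no library of a group matched the other within sampling noise. ABCB1, the drug efflux pump, was at 1174 and 1049 CPM (counts divided by the library total and put on a common scale) in DU145 resistant libraries, against 1.67 and 1.61 CPM in DU145 sensitive libraries, and at 98.1 and 86.6 CPM in PC3 resistant libraries, against 2.09 and 3.38 CPM in PC3 sensitive libraries. The lines matched their labels at a gene known to be lost in PC3, since CTNNA1 was at 2.14 to 3.25 CPM in the PC3 libraries and at 483 to 567 CPM in the DU145 libraries. KLK3, a luminal prostate marker, had no count in any library, which allows up to 0.0368 to 0.0453 CPM over the 2 libraries of a group (3 counts, counting error only), as is known of these lines.

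Ephrins are ligands held on the cell surface, the A class by a lipid anchor and the B class by a membrane span with a cytoplasmic tail. Their receptors, the Eph proteins, are receptor tyrosine kinases, so signalling needs contact between cells and runs both ways, forward into the cell with the receptor and in reverse into the cell with the ephrin. A receptors bind mainly A ephrins and B receptors mainly B ephrins, but EPHA4 binds both classes and EPHB4 strongly prefers EFNB2. In epithelial cells these proteins are known for roles in cell repulsion, adhesion and boundary formation.

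Promoter sequences are shown for 4 genes on which the values below turn, namely EFNB2, under 1 CPM in DU145 sensitive libraries, its receptor EPHB4, abundant in every group, and EPHB1 and EPHB6, further B receptors that were under 1 CPM in PC3 sensitive libraries. These 4 genes were chosen after their values were seen. Each sequence is the 250 bases before the gene start in RefSeq on the strand of the gene (GRCh38.p14, the same build as hg38), 5′ to 3′, and capitals mark the motifs CCAAT and GGGCGG on either strand (the reverse strand reads ATTGG and CCGCCC). The EFNB2 window is at chr13:106535663-106535912, the EPHB4 window at chr7:100827524-100827773 and the EPHB1 window at chr3:134795010-134795259, each directly before the first annotated exon, the first 2 on the minus strand and EPHB1 on the plus strand. The EPHB6 window is at chr7:142862506-142862755 on the plus strand, and it lies within the longer GENCODE gene, which starts at 142855061.
EFNB2: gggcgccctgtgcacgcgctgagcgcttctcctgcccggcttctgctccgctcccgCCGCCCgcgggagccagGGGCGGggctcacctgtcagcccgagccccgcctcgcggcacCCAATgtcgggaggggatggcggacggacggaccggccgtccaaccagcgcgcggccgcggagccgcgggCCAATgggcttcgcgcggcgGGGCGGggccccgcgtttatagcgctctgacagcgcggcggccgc
EPHB4: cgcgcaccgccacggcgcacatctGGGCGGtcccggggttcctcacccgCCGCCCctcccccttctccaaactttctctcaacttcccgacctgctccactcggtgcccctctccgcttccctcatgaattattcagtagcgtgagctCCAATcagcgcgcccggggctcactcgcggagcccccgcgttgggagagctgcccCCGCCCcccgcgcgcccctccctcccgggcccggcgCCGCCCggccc
EPHB1: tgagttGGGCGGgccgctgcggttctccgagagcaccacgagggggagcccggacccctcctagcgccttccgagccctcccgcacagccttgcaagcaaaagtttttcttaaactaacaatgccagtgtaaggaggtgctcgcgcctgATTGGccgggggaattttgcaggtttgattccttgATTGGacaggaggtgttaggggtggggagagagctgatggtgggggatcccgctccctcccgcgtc
EPHB6: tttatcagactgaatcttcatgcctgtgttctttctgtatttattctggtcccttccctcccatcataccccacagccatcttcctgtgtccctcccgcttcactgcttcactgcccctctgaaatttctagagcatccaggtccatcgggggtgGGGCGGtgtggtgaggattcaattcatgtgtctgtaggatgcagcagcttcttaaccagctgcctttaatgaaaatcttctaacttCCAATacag

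The EFNB2 window held 40 CpG dinucleotides, 2 CCAAT and 3 GGGCGG matches at 78.4% GC, and the EPHB4 window held 29 CpG, 1 CCAAT and 4 GGGCGG matches at 72.8% GC. EPHB1 had 15 CpG, 2 CCAAT and 1 GGGCGG matches at 60.8% GC, whereas EPHB6 had 3 CpG, 1 CCAAT and 1 GGGCGG matches at 48.0% GC. Among 35116 RefSeq promoter windows of the same length, 32.0% held CCAAT and 42.6% held GGGCGG, and the median window held 11 CpG (quartiles 3 and 23). The EFNB2 and EPHB4 windows were therefore above the upper quartile of CpG content and the EPHB6 window was at the lower quartile. All 10 described genes and 20 of the 22 genes of the family had an entry.

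Within-line differences are given first for the ligands. EFNB2 (chromosome 13, 106489745 to 106535662, minus strand), the B ephrin that marks arteries in development, was at 43.0 and 55.0 CPM in DU145 resistant libraries, against 0.835 and 0.575 CPM in DU145 sensitive libraries. Those low values are 30 and 20 counts, so the gene was detected at a low level in DU145 sensitive cells. The fitted log2 fold change was 6.11 ± 0.24 (± is the standard error here and below), the largest absolute value among the 10 genes in either line. In PC3 the same gene was at 26.9 and 23.9 CPM in resistant libraries and 19.5 and 19.6 CPM in sensitive libraries, which was 0.27 ± 0.18 as a log2 fold change. In either line no resistant library was as low as a sensitive one, but the gap was wide only in DU145. In bulk libraries fewer cells with a transcript and less of it per cell cannot be told apart.

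EFNB1 (chromosome X, 68829021 to 68842160, plus strand), the B ephrin mutated in craniofrontonasal syndrome, showed a difference in PC3 instead. It was at 38.2 and 65.1 CPM in PC3 resistant libraries, against 82.0 and 85.4 CPM in PC3 sensitive libraries, a log2 fold change of −0.79 ± 0.21. The value was −0.45 without PC3 resistant replicate 1 and −1.24 without PC3 resistant replicate 2, since the 2 resistant libraries differed from each other. In DU145 it was at 10.2 and 9.85 CPM in resistant libraries and 9.74 and 9.92 CPM in sensitive libraries, so the groups overlapped.

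EFNA1 (chromosome 1, 155127876 to 155134899, plus strand), the A ephrin best known as a ligand of EPHA2, was lower in DU145 resistant cells. It was at 11.5 and 11.5 CPM in DU145 resistant libraries, against 45.6 and 40.8 CPM in DU145 sensitive libraries, a log2 fold change of −1.90 ± 0.17. In PC3 it was at 12.9 and 14.1 CPM in resistant libraries and 12.8 and 12.8 CPM in sensitive libraries, with a fitted log2 fold change of −0.02 ± 0.16. The PC3 groups barely separated in CPM and did so in the opposite direction to the fitted value, which includes the scaling factors. DU145 sensitive cells thus stood apart from the 3 other groups, all of which were between 11.5 and 14.1 CPM.

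EFNA5 (chromosome 5, 107376894 to 107670937, minus strand), an A ephrin with roles in axon guidance, had small differences within either line. It was at 41.4 and 38.1 CPM in DU145 resistant libraries and 43.3 and 40.5 CPM in DU145 sensitive libraries, and at 13.9 and 13.3 CPM in PC3 resistant libraries and 12.5 and 11.2 CPM in PC3 sensitive libraries. The log2 fold changes were −0.07 ± 0.16 in DU145, where the libraries overlapped, and 0.09 ± 0.16 in PC3.

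**Figure D1:**
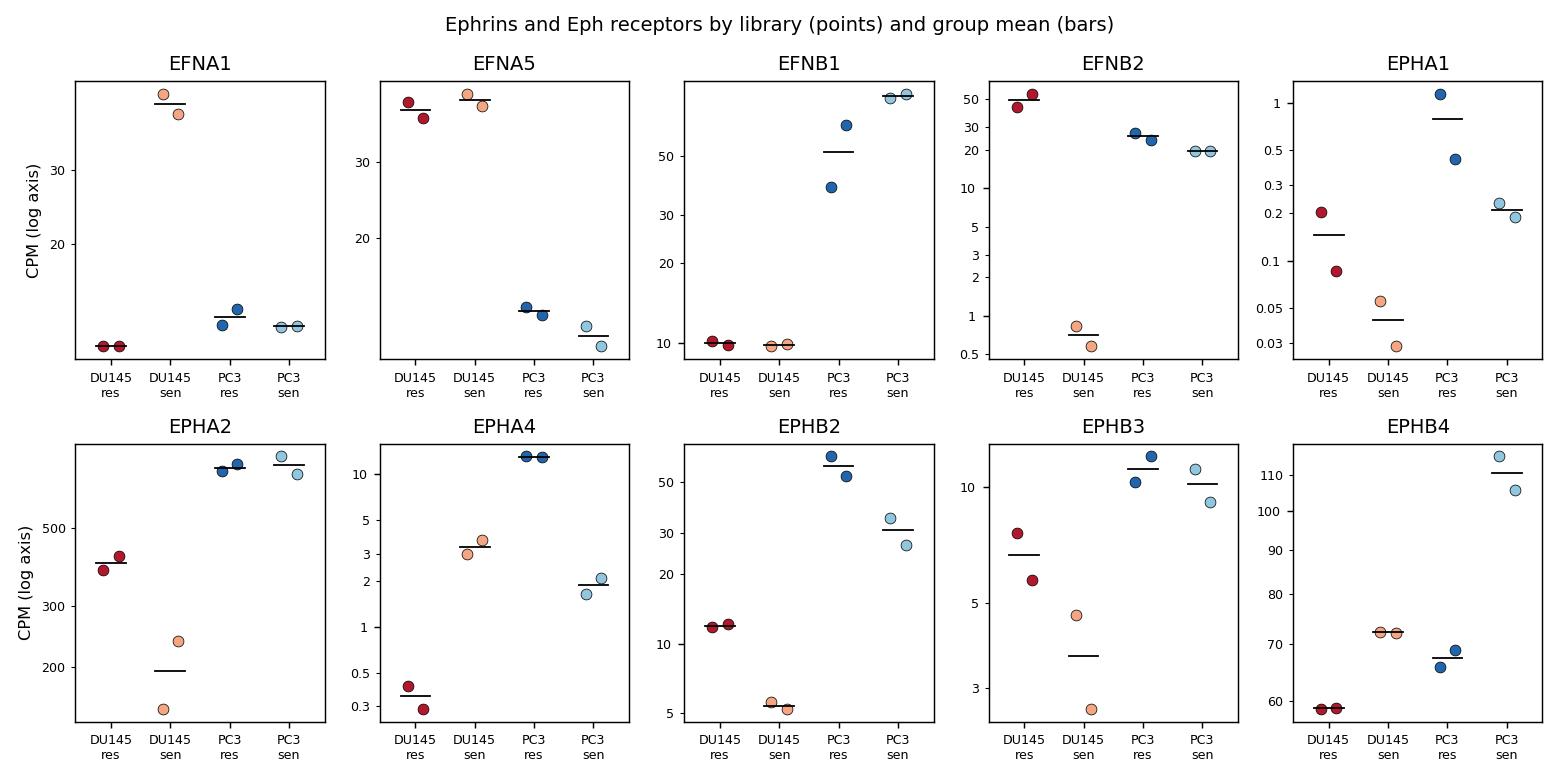
CPM on log axes in each library (points) and group mean (bars) for the 10 described ephrins and Eph receptors, with resistant (res) left of sensitive (sen) cells in DU145 (reds) and PC3 (blues). EFNB2 was at 43.0 and 55.0 CPM in DU145 resistant libraries, against 0.835 and 0.575 CPM in DU145 sensitive libraries, and EPHA4 lay in opposite order in DU145 and PC3.

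Among the A receptors, EPHA2 (chromosome 1, 16124337 to 16156069, minus strand), a receptor commonly abundant in epithelial tumours, had the highest level. It was at 378 and 415 CPM in DU145 resistant libraries, against 152 and 237 CPM in DU145 sensitive libraries, a log2 fold change of 1.04 ± 0.19. The value ranged from 0.79 without DU145 sensitive replicate 1 to 1.36 without DU145 sensitive replicate 2. In PC3 it was at 727 and 761 CPM in resistant libraries and 801 and 715 CPM in sensitive libraries, and the groups overlapped. A long noncoding RNA on the opposite strand (RP11-276H7.2) shares 894 bases with EPHA2 and was at a mean of 1.23 CPM.

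EPHA4 (chromosome 2, 221418027 to 221574202, minus strand), the receptor that binds both ephrin classes, lay in opposite order in the 2 lines. It was at 0.409 and 0.288 CPM in DU145 resistant libraries, against 3.01 and 3.68 CPM in DU145 sensitive libraries, and at 13.1 and 12.9 CPM in PC3 resistant libraries, against 1.65 and 2.08 CPM in PC3 sensitive libraries. The log2 fold changes were −3.24 ± 0.33 in DU145 and 2.70 ± 0.27 in PC3. No resistant library overlapped a sensitive one in either line. The DU145 resistant values are only 14 and 10 counts.

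EPHA1 (chromosome 7, 143390289 to 143408856, minus strand), the first Eph receptor to be cloned, was close to the detection limit. It had 10 counts in all in DU145 resistant libraries and 3 in DU145 sensitive libraries, a ratio of 3.42 with a 95% exact counting interval of 0.880 to 19.3. In PC3 it was at 1.14 and 0.441 CPM in resistant libraries, against 0.232 and 0.189 CPM in sensitive libraries. EPHA1 shares 823 bases with ZYX on the opposite strand, a gene at a mean of 226 CPM, and the strand setting of the counting is not given, so EPHA1 counts that came from ZYX cannot be told apart.

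Among the B receptors, EPHB4 (chromosome 7, 100802565 to 100827523, minus strand), the main receptor of EFNB2, was at 58.7 and 58.9 CPM in DU145 resistant libraries, against 72.2 and 72.1 CPM in DU145 sensitive libraries. In PC3 it was at 65.7 and 68.8 CPM in resistant libraries, against 116 and 106 CPM in sensitive libraries. The log2 fold changes were −0.29 ± 0.13 in DU145 and −0.82 ± 0.13 in PC3. In either line no resistant library reached a sensitive one. The tested genes around EPHB4 also had a negative median in either line, as given below. EPHB4 shares 704 bases with SLC12A9 on the opposite strand, which was at 12.6 to 41.7 CPM and was also lower in PC3 resistant than in PC3 sensitive libraries, and its part in the EPHB4 values was not tested.

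EPHB2 (chromosome 1, 22710839 to 22921500, plus strand), a receptor of B ephrins that is a Wnt target in the intestine, was higher in the resistant cells of both lines. It was at 11.8 and 12.1 CPM in DU145 resistant libraries, against 5.57 and 5.20 CPM in DU145 sensitive libraries, and at 64.7 and 53.2 CPM in PC3 resistant libraries, against 35.2 and 26.6 CPM in PC3 sensitive libraries. The log2 fold changes were 1.16 ± 0.19 in DU145 and 0.83 ± 0.18 in PC3. EPHB3 (chromosome 3, 184561785 to 184582408, plus strand), which acts with EPHB2 in the intestine, was at 7.60 and 5.73 CPM in DU145 resistant libraries, against 4.65 and 2.65 CPM in DU145 sensitive libraries. Its log2 fold change in DU145 was 0.88 ± 0.31, with 1.39 and 0.51 when DU145 sensitive replicates 1 and 2 were left out in turn, and in PC3 its libraries overlapped at 10.3 and 12.03 CPM in resistant libraries and 11.2 and 9.15 CPM in sensitive libraries.

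By the rule used for all genes, an edgeR adjusted p under 0.05, 3 of the 10 genes were called higher and 2 lower in DU145, where 27.8% of all tested genes were called (12.4% higher and 15.4% lower). In PC3 also 3 were called higher and 2 lower, where 35.6% were called (18.6% higher and 17.0% lower). Since these contrasts chose the genes, nothing is read from the counts. Leaving out PC3 sensitive replicate 2 left 1 higher and 1 lower in PC3, and leaving out PC3 sensitive replicate 1 or PC3 resistant replicate 1 left 1 lower. Libraries of the 2 variants did not overlap for 8 genes in either line, 5 above and 3 below in DU145 and 6 above and 2 below in PC3, with 61.3% of all tested genes apart in DU145 (29.6% above and 31.7% below) and 71.5% in PC3 (40.9% above and 30.6% below).

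Epithelial markers moved with resistance in DU145, to unequal degrees, and their part in the values above was not tested. All 5 markers on that list were lower in both DU145 resistant libraries, as were 31.7% of all tested genes. Their sums were 396 and 249 CPM in DU145 resistant libraries and 4179 and 2558 CPM in DU145 sensitive libraries, mostly from KRT8 and KRT18. CDH1 was at 0.351 and 0.490 CPM in DU145 resistant libraries, against 24.0 and 21.3 CPM in DU145 sensitive libraries. EPCAM differed little, at 18.6 and 17.5 CPM in DU145 resistant libraries and 21.6 and 20.2 CPM in DU145 sensitive libraries (edgeR adjusted p = 0.662). In PC3 2 of the 5 lay higher in both resistant libraries and 3 overlapped, where 40.9% of all tested genes lay higher. The sums were 973 and 1000 CPM in PC3 resistant libraries and 849 and 758 CPM in PC3 sensitive libraries. In DU145 the 3 endothelial markers summed to 0.438 and 0.346 CPM in resistant libraries and 1.36 and 0.949 CPM in sensitive libraries, with VWF at no more than 0.278 CPM. In PC3 the sums were 13.4 and 25.4 CPM in resistant libraries and 6.43 and 6.88 CPM in sensitive libraries, nearly all from PECAM1, while VWF was at no more than 0.302 CPM and CDH5 at no more than 0.0778 CPM. The 3 leukocyte markers summed to at most 2.10 CPM in any library, and the 3 fibroblast markers to 4.34 to 33.8 CPM, with the higher sums in PC3.

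The difference between the lines within each variant is another contrast than those that chose the genes, but it uses the same libraries and group means. Its p-values, counts of calls and medians for the 10 genes are therefore not independent of that choice. It was tested by edgeR's quasi-likelihood test with Benjamini-Hochberg adjustment over 20238 genes. Among resistant cells, 5 of the 10 genes were higher and 2 lower in PC3 than in DU145, where 56.7% of all tested genes were called (30.4% higher and 26.3% lower). Among sensitive cells, 6 were higher and 3 lower in PC3, where 57.8% of all tested genes were called (28.6% higher and 29.2% lower). The median log2 difference over the 10 genes was 0.78 among resistant and 1.79 among sensitive cells, against 0.03 and −0.03 over all tested genes.

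EFNB2 was lower in PC3 than in DU145 among resistant cells, with a log2 difference of −0.99 ± 0.18 (edgeR adjusted p = 0.000734), and higher in PC3 among sensitive cells, with one of 4.85 ± 0.23 (edgeR adjusted p = 5.4e-08). Both calls held in the 13 alternative fits, which include each library left out in turn, but the call among resistant cells was lost with a 2-fold limit. EFNB1 was higher in PC3 in either variant, by 2.32 ± 0.23 among resistant cells (edgeR adjusted p = 9.88e-06) and 3.15 ± 0.24 among sensitive cells (edgeR adjusted p = 1.27e-06). EFNA5 was lower in PC3 in either variant, with log2 differences of −1.59 ± 0.16 among resistant cells (edgeR adjusted p = 1.26e-05) and −1.75 ± 0.16 among sensitive cells (edgeR adjusted p = 6.75e-06). EFNA1 differed by 0.19 ± 0.17 among resistant cells (edgeR adjusted p = 0.356), which did not pass, and was lower in PC3 among sensitive cells, at −1.69 ± 0.17 (edgeR adjusted p = 1e-05).

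Of the 6 receptors, 4 were higher in PC3 among resistant cells and the other 2 did not pass. Among sensitive cells 4 were higher and 1 lower. Of all tested genes, 30.4% were higher and 26.3% lower among resistant cells, and 28.6% and 29.2% among sensitive cells. EPHA2 was higher by 0.86 ± 0.19 among resistant cells (edgeR adjusted p = 0.00257) and 2.03 ± 0.20 among sensitive cells (edgeR adjusted p = 8.21e-06), and EPHB2 by 2.26 among resistant cells (edgeR adjusted p = 3.26e-06) and 2.59 among sensitive cells (edgeR adjusted p = 1.54e-06). EPHA4 was higher in PC3 by 5.16 ± 0.33 among resistant cells (edgeR adjusted p = 4.07e-07) and lower among sensitive cells, at −0.78 ± 0.27 (edgeR adjusted p = 0.0301). The call among sensitive cells was lost without DU145 sensitive replicate 2 (edgeR adjusted p = 0.132), without PC3 sensitive replicate 1 (0.189), without PC3 sensitive replicate 2 (0.0636) and with no low count filter (0.0560).

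EPHB3 and EPHB4 were higher in PC3 only among sensitive cells by this test, and whether the line difference itself differed between the variants was not tested, as it is the contrast that chose the genes. For EPHB3 the log2 difference was 0.69 ± 0.30 among resistant cells (edgeR adjusted p = 0.0695, range over the alternatives 0.0261 to 0.331) and 1.54 ± 0.31 among sensitive cells (edgeR adjusted p = 0.00149). For EPHB4 it was 0.15 ± 0.13 among resistant cells (edgeR adjusted p = 0.335) and 0.68 ± 0.13 among sensitive cells (edgeR adjusted p = 0.00084). EPHA1 was higher in PC3 among resistant cells, with 66 counts against 10 and a log2 difference of 2.37 ± 0.67 (edgeR adjusted p = 0.0110), a call lost without DU145 resistant replicate 2 (0.0913) or PC3 resistant replicate 1 (0.167). Among sensitive cells EPHA1 differed by 2.29 ± 0.95 (edgeR adjusted p = 0.0586), which did not pass.

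**Figure D2:**
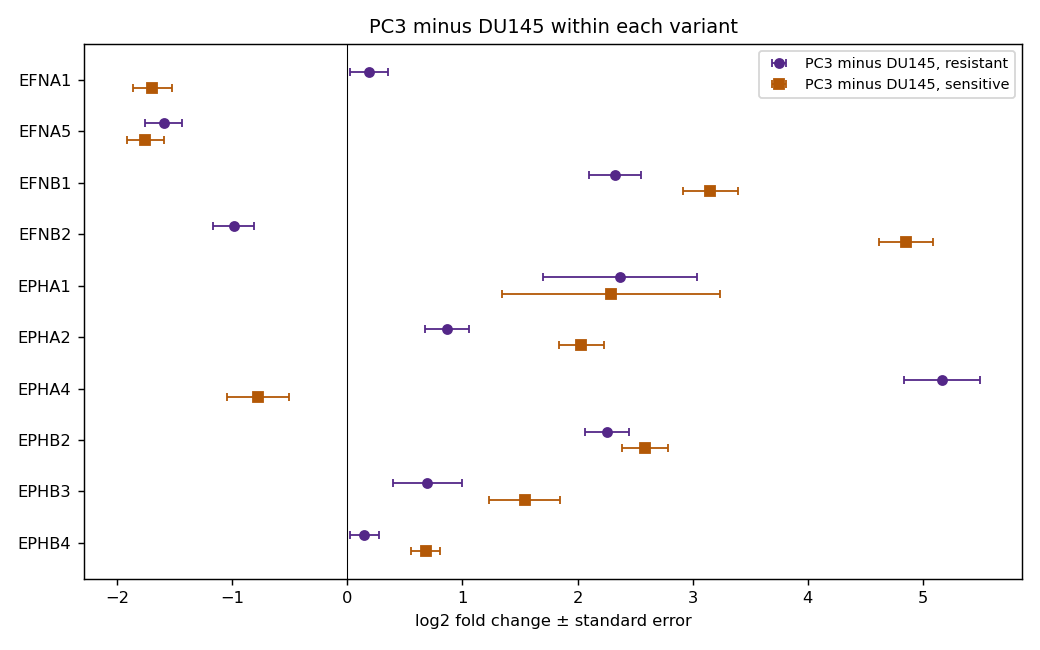
Log2 fold change of PC3 over DU145 with its standard error for the 10 described genes, among resistant cells (purple circles) and among sensitive cells (brown squares). EFNB2 was at −0.99 among resistant and 4.85 among sensitive cells and EPHA4 at 5.16 among resistant and −0.78 among sensitive cells, while EFNB1 and EPHB2 lay above 0 and EFNA5 below 0 in either variant.

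Levels of different genes were compared as CPM per kilobase of annotated exon, and with no test. EPHA2 led the family in every group, at a mean of 95.8 CPM per kb in DU145 resistant cells, 47.0 in DU145 sensitive cells, 180 in PC3 resistant cells and 183 in PC3 sensitive cells. It made up 94.3% to 99.1% of the summed level of the A receptors in every library. Its ligand EFNA1 was at 5.30 CPM per kb in DU145 resistant cells and 19.9 in DU145 sensitive cells, and at 6.22 in PC3 resistant cells and 5.91 in PC3 sensitive cells.

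EFNB2 ranked 2nd of the 22 family genes in DU145 resistant cells, at 8.58 and 10.98 CPM per kb. Its libraries there overlapped those of EFNA4 (10.9 and 8.13 CPM per kb), and EFNA4 overlapped EPHB4 (9.12 and 9.16 CPM per kb), so the order of these 3 neighbours was not resolved. In DU145 sensitive cells EFNB2 ranked 13th, at 0.167 and 0.115 CPM per kb, which overlapped EFNA2 below it but not EPHB2 above it. In PC3 it ranked 8th in resistant cells, at 5.37 and 4.77 CPM per kb, overlapping EFNA4 above and EPHB2 below, and 6th in sensitive cells, at 3.91 and 3.92 CPM per kb, overlapping EFNB3 below.

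EFNB2 was then set beside its receptors. The per-length ratio of EFNB2 to EPHB4 was 0.941 and 1.20 in DU145 resistant libraries, against 0.0149 and 0.0103 in DU145 sensitive libraries, and 0.526 and 0.447 in PC3 resistant libraries, against 0.217 and 0.239 in PC3 sensitive libraries. The ratio was near 1, with ligand and receptor at about the same level per length, in DU145 resistant cells and below that in the 3 other groups. The ratio to EPHB2 was 9.12 and 11.4 in DU145 resistant libraries, against 0.375 and 0.276 in DU145 sensitive libraries, but 1.04 and 1.12 in PC3 resistant libraries, against 1.39 and 1.84 in PC3 sensitive libraries, where EPHB2 was itself higher in the resistant cells. The ratio to EPHB3 was 5.12 and 8.68 in DU145 resistant libraries and 0.163 and 0.197 in DU145 sensitive libraries, and overlapped between the PC3 groups at 2.36 and 1.80 in resistant and 1.58 and 1.94 in sensitive libraries. The ratio to EPHA4 was 158 and 288 in DU145 resistant libraries, where EPHA4 was almost absent, against 0.419 and 0.236 in DU145 sensitive libraries, and 3.10 and 2.79 in PC3 resistant libraries, against 17.9 and 14.2 in PC3 sensitive libraries.

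The makeup of the B class followed these values. EFNB2 was 71.9% and 77.4% of the summed B ephrin level in DU145 resistant libraries, whereas EFNB1 led the class in every other group, with 59.4% and 55.1% in DU145 sensitive libraries, 44.2% and 56.2% in PC3 resistant libraries and 74.9% and 78.8% in PC3 sensitive libraries. EPHB4 was 77.1% and 80.0% of the summed B receptor level in DU145 resistant libraries and 88.2% and 91.6% in DU145 sensitive libraries. In PC3 it was 34.3% and 30.3% in resistant libraries, against 76.8% and 79.7% in sensitive libraries. EPHB6 and EPHB1 filled the difference in PC3 resistant libraries, EPHB6 with 28.1% and 39.2% and EPHB1 with 12.5% and 11.0% of the class.

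**Figure D3:**
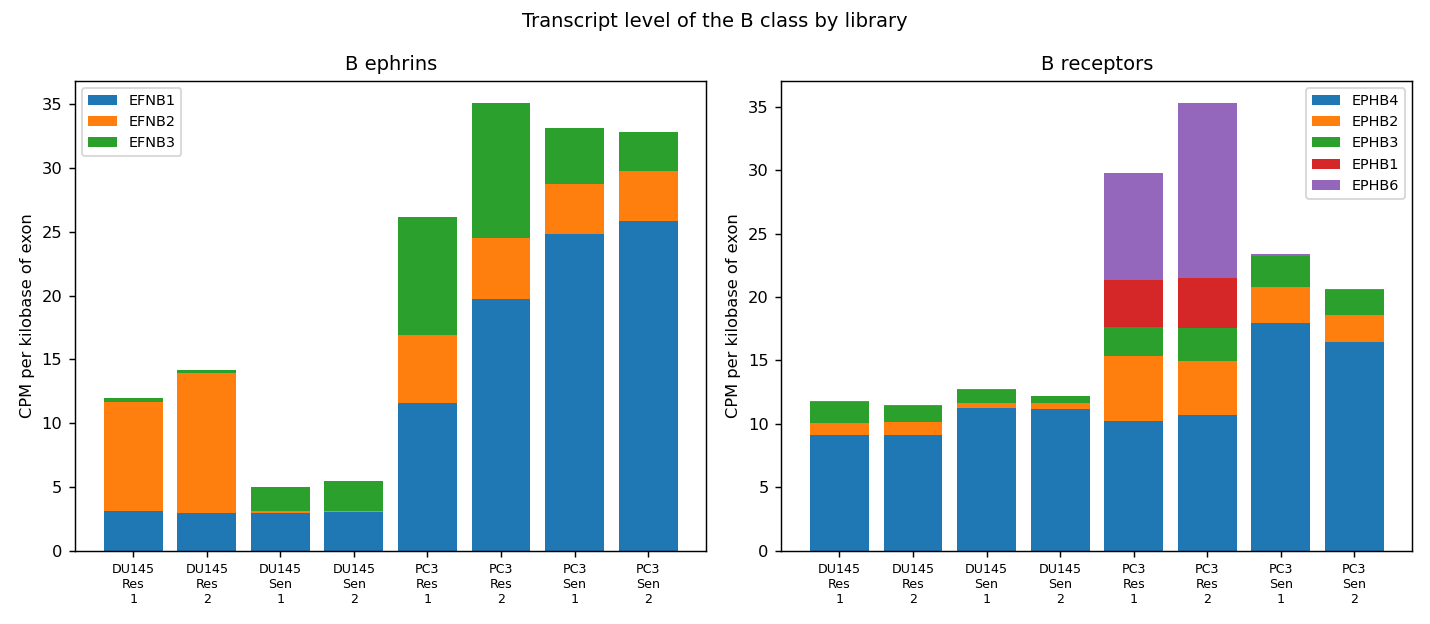
CPM per kilobase of exon in each library, stacked by gene, for the B ephrins (left panel) and B receptors (right panel), with resistant (Res) left of sensitive (Sen) libraries in each line. EFNB2 filled 71.9% and 77.4% of the B ephrin bar in DU145 resistant libraries, and EPHB6 and EPHB1 appear in the B receptor bar of the PC3 resistant libraries.

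The other 12 ephrins and Eph receptors are those left in the family after the described genes were chosen on these values, so their counts depend on that choice. Of these 12 genes, 10 could be tested. EPHA3 and EPHA8 were at no more than 0.0557 and 0.115 CPM in any library. In DU145 0 of the 10 were called higher and 1 was lower by edgeR, against 27.8% of all tested genes called in that line. At an unadjusted p under 0.05, 1 (EPHB6) was higher by edgeR and 1 (EPHB6) by DESeq2, which called 0 after adjustment. EFNB3, the third B ephrin, fell in DU145, at 0.877 and 0.749 CPM in resistant libraries and 5.96 and 7.50 CPM in sensitive libraries (log2 fold change −3.03 ± 0.29, edgeR adjusted p = 3.67e-05). In PC3 it rose, at 29.7 and 34.0 CPM in resistant libraries and 14.2 and 9.78 CPM in sensitive libraries (log2 fold change 1.31 ± 0.23, edgeR adjusted p = 0.00167). Thus, EFNB3 and EFNB2 lay on opposite sides in DU145.

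In PC3, 6 of the 10 were higher and 2 lower, against 35.6% of all tested genes called. EPHB1, a B receptor of the nervous system, had 1808 counts in all in PC3 resistant libraries and 3 in PC3 sensitive libraries, at 21.7 and 22.6 CPM against 0.0579 and 0.0316 CPM. The ratio was 489 (95% exact counting interval 167 to 2370, edgeR adjusted p = 1.51e-07). EPHB6, a B receptor without kinase activity, was at 44.5 and 73.5 CPM in PC3 resistant libraries, against 0.782 and 0.126 CPM in PC3 sensitive libraries (log2 fold change 6.88 ± 0.53, edgeR adjusted p = 5.58e-06). Leaving out PC3 sensitive replicate 1 gave 8.75 and leaving out replicate 2 of that group 6.11. Both genes were thus under 1 CPM in PC3 sensitive libraries, as EFNB2 was in DU145 sensitive libraries, and neither passed in DU145, where EPHB6 was at 0.497 and 0.317 CPM in resistant libraries, against 0.111 and 0.0575 CPM in sensitive libraries (edgeR adjusted p = 0.0952, range over the alternatives 0.00119 to 0.307).

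Among the A class, EPHA10, another receptor without kinase activity, fell in PC3 to 0.209 and 0.104 CPM in resistant libraries, against 2.90 and 2.81 CPM in sensitive libraries (log2 fold change −4.24 ± 0.36, edgeR adjusted p = 1.06e-05). EFNA4 also fell in PC3, at 6.64 and 8.32 CPM in resistant libraries and 16.2 and 15.6 CPM in sensitive libraries (log2 fold change −1.19 ± 0.25, edgeR adjusted p = 0.00403). EPHA5 and EPHA7, receptors of A ephrins known from neurons, were higher in PC3 resistant libraries by 1.04 (edgeR adjusted p = 0.0221) and 0.99 (edgeR adjusted p = 0.0177) on the log2 scale, but the EPHA5 call was lost without PC3 sensitive replicate 2 or either PC3 resistant library and the EPHA7 call without PC3 sensitive replicate 1 or either PC3 resistant library (edgeR adjusted p up to 0.193 for EPHA5 and 0.146 for EPHA7). EPHA5 also shares 870 bases with a pseudogene on the opposite strand (RP11-408P14.1), which was at a mean of 2.39 CPM. EFNA2 had 25 counts in all in PC3 resistant libraries and none in PC3 sensitive libraries, at least 6.76-fold higher against a floor of 3 counts over the group with the 25 counts taken as exact (edgeR adjusted p = 0.00496). The 95% exact counting interval of that ratio started at 5.10. EPHA6 (edgeR adjusted p = 0.128) and EFNA3 (edgeR adjusted p = 0.555) did not pass in PC3.

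**Figure D4:**
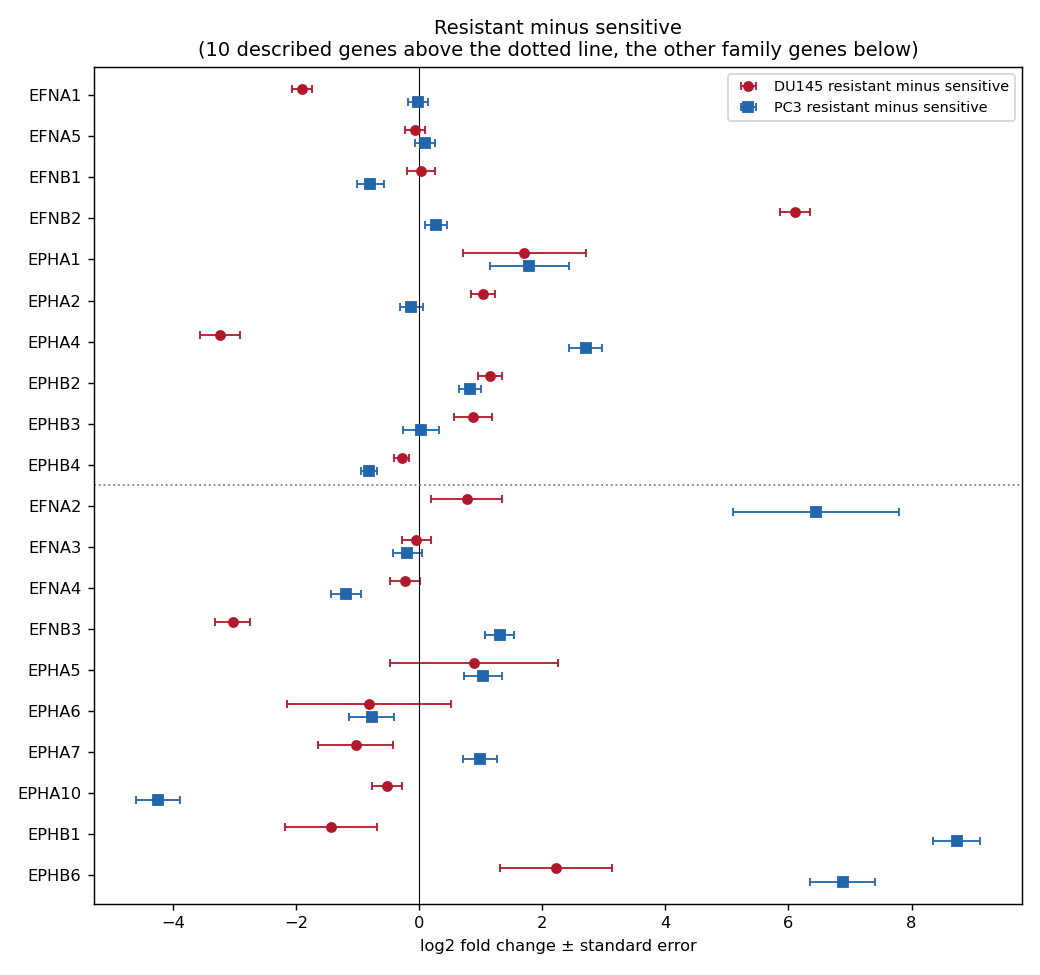
Log2 fold change of resistant over sensitive cells with its standard error in DU145 (red circles) and PC3 (blue squares), for the 10 described genes above the dotted line and the 10 other tested family genes below it. EFNB2 stood at 6.11 in DU145 and 0.27 in PC3, while EPHB1 stood at 8.73 and EPHB6 at 6.88 in PC3.

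Genes of Eph and ephrin signalling were listed by their role, with earlier results of these data known, and 51 of 52 were tested. Their counts may therefore depend on that knowledge. In DU145, 9 were higher and 11 lower (39.2% of the list, against 27.8% of all tested genes), with a median log2 fold change of 0.01 against 0.00 over all tested genes. In PC3, 15 were higher and 11 lower (51.0%, against 35.6%), with a median of 0.14 against 0.01. Of the 10 genes of ephrin reverse signalling, 2 were lower in DU145, and 6 were higher and 2 lower in PC3. Of the 9 tested exchange factors and GTPase regulators, 5 were higher and 1 lower in DU145 and 4 were higher and 1 lower in PC3.

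TIAM1, an exchange factor for Rac that binds ephrins and Eph receptors, rose in resistant cells of both lines, by 0.86 ± 0.19 in DU145 (edgeR adjusted p = 0.00638) and 1.08 ± 0.18 in PC3 (edgeR adjusted p = 0.00125) on the log2 scale. MLLT4, the afadin scaffold that binds the tail of Eph receptors, also rose in both, at 347 and 535 CPM in DU145 resistant libraries, against 135 and 171 CPM in DU145 sensitive libraries, and at 90.8 and 94.3 CPM in PC3 resistant libraries, against 44.7 and 45.4 CPM in PC3 sensitive libraries. RASA1, the Ras GTPase activating protein that EPHB receptors recruit, rose by 0.69 in DU145 (edgeR adjusted p = 0.00642) and 1.04 in PC3 (edgeR adjusted p = 0.000477). The adaptor GRB2 fell by 0.74 in DU145 (edgeR adjusted p = 0.00223) and by 0.73 in PC3 (edgeR adjusted p = 0.00182).

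When the PC3 change was tested against the DU145 change, 14 of the 51 partners passed above 0 and 13 below, against 18.5% of all tested genes above and 15.9% below. The kinase CDK5 fell in both lines, by 1.31 in DU145 (edgeR adjusted p = 0.000275) and by 0.69 in PC3 (edgeR adjusted p = 0.00693) on the log2 scale, but the PC3 call was lost without PC3 sensitive replicate 1 (0.0674) or PC3 resistant replicate 1 (0.0543). The other partners named were called in 1 line, which is not by itself a difference between the lines. For ADAM10, named below, the difference between the lines did not pass (edgeR adjusted p = 0.16). Its PC3 log2 fold change was −0.40 ± 0.17 (edgeR adjusted p = 0.0876), with both resistant libraries below the sensitive ones. In DU145, MMP14, a membrane protease that cleaves EPHA2, was at 32.4 and 68.5 CPM in resistant libraries, against 9.16 and 11.8 CPM in sensitive libraries (log2 fold change 2.26 ± 0.30, edgeR adjusted p = 0.000370). SIPA1L1, a Rap GTPase activating protein tied to EPHA4, rose by 1.76 (edgeR adjusted p = 3.7e-05), the ubiquitin ligase CBL by 1.25 (edgeR adjusted p = 0.000508) and the Rac regulator CHN1, which acts below EPHA4, by 1.14 (edgeR adjusted p = 0.000945). Lower in DU145 resistant cells were NGEF, the ephexin that acts below EPHA receptors (log2 fold change −2.75, edgeR adjusted p = 9.2e-05), ANKS1A, an EPHA adaptor (−1.12, 0.000534), the phosphatase PTPN1 (−1.02, 0.000197) and ADAM10, the protease that sheds ephrins (−0.86, 0.00356). FYN, the kinase that phosphorylates B ephrins, was also lower (−0.95, edgeR adjusted p = 0.0240), a call lost without DU145 sensitive replicate 2 (0.156), without DU145 resistant replicate 1 (0.136) and in a fit of DU145 alone (0.0719).

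In PC3, the exchange factor KALRN, which acts in EPHB signalling at synapses, was at 18.8 and 28.1 CPM in resistant libraries, against 1.13 and 1.48 CPM in sensitive libraries (log2 fold change 4.07 ± 0.35, edgeR adjusted p = 1.3e-05). PIK3R1, a regulatory subunit of PI3 kinase, rose by 1.31 (edgeR adjusted p = 0.000641) and PICK1, a PDZ protein that binds B ephrins, by 1.11 (edgeR adjusted p = 0.00132). Lower in PC3 resistant cells were the polarity protein PARD6A, which binds EFNB1 (−1.43, edgeR adjusted p = 0.00137), the adaptors SHC1 (−0.99, 0.00153) and NCK1 (−0.98, 0.000446), and the exchange factor VAV2 (−0.85, 0.00154). VAV3, named after its values were seen because its mean was under the limit for naming, had 581 counts in all in PC3 resistant libraries and 2 in PC3 sensitive libraries, a ratio of 236 (95% exact counting interval 65.0 to 1950).

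**Figure D5:**
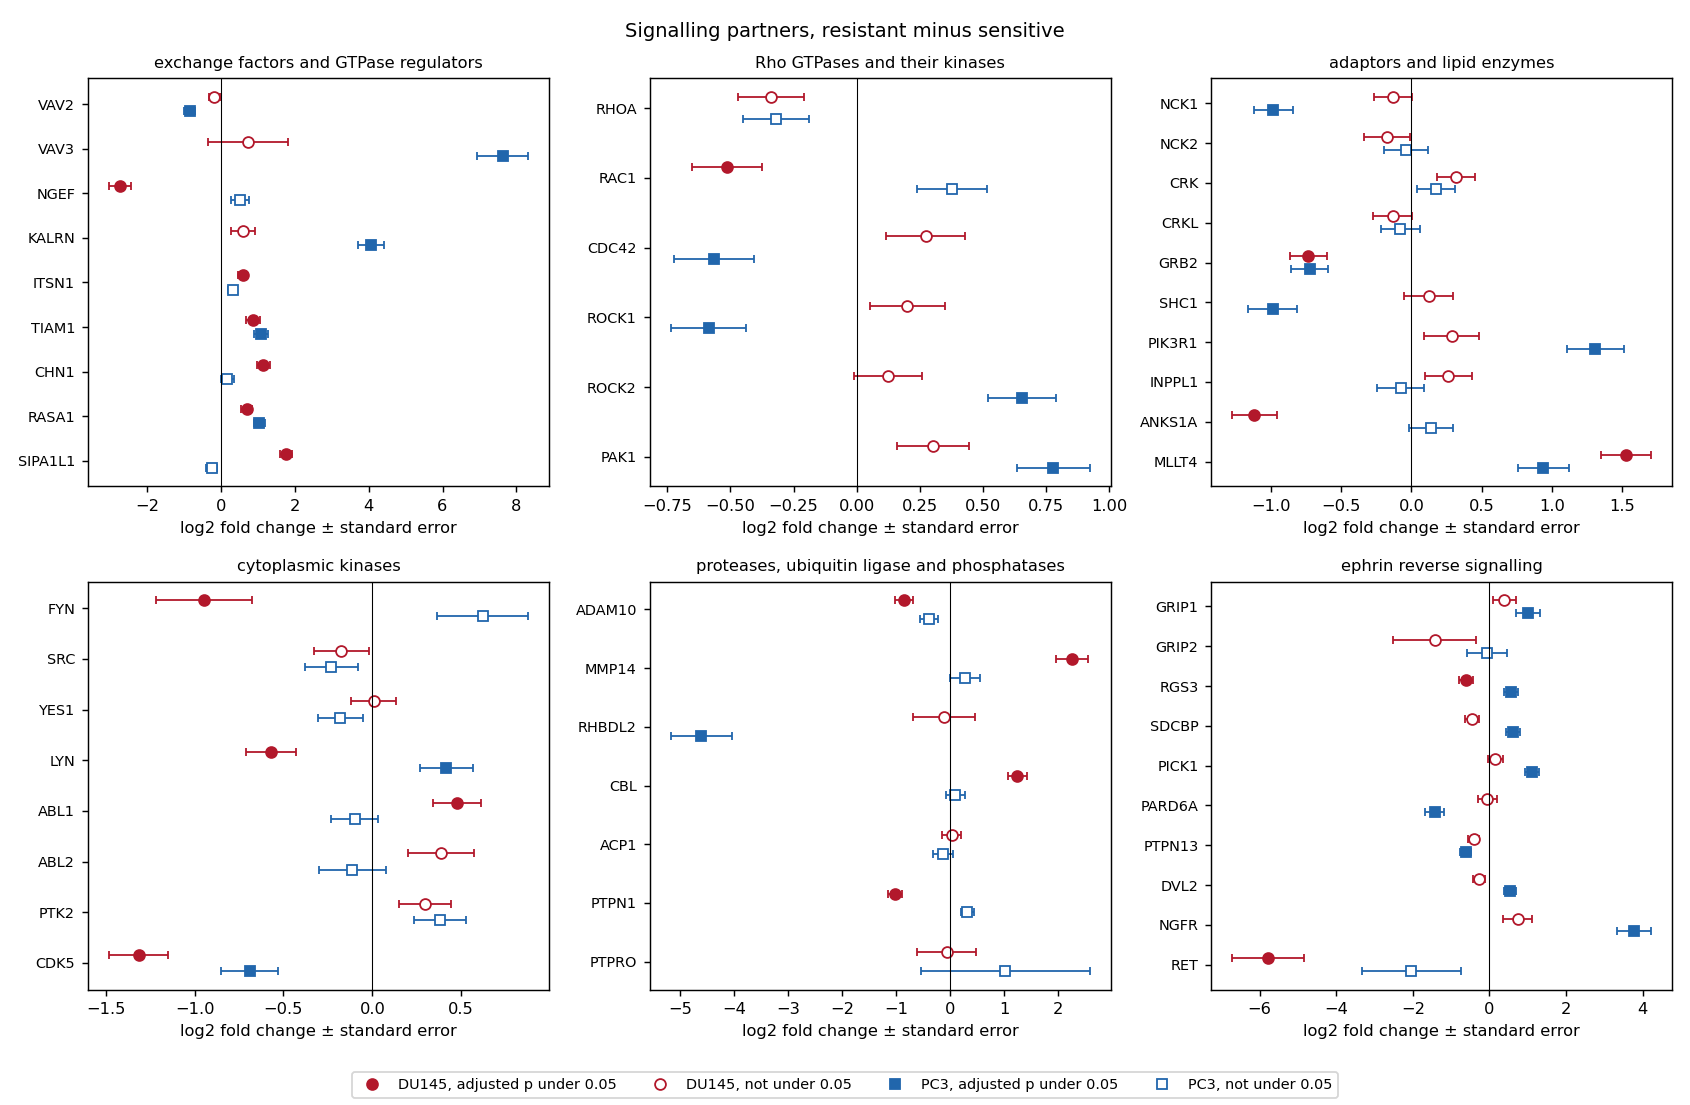
Log2 fold change of resistant over sensitive cells with its standard error for 50 signalling partners in 6 classes, in DU145 (red circles) and PC3 (blue squares), filled where the edgeR adjusted p was under 0.05 (each panel has its own axis). TIAM1, RASA1 and MLLT4 are filled to the right of 0 and GRB2 to the left in both lines, and KALRN stands at 4.07 in PC3.

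The genes whose pattern over the 8 libraries was most like that of EFNB2 were found among 11139 protein-coding genes by the root mean square difference of log2 CPM, each gene centred on its own mean. Of the 5 nearest, 4 are given here, TGFB1I1 (0.87), CDK6 (0.90), SLFN11 (0.91) and CTGF (0.92). CDK6, a cell cycle kinase, was at 270 and 275 CPM in DU145 resistant libraries, against 11.7 and 14.9 CPM in DU145 sensitive libraries. In these 4 genes the DU145 sensitive libraries were lowest, as for EFNB2, but they were picked for that likeness, so this is no separate result. In PC3, resistant libraries lay above sensitive ones for CTGF, as for EFNB2, below for TGFB1I1, and overlapped for CDK6 and SLFN11. The points share libraries and depth, so the likeness is a description.

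The log2 fold change of EFNB2 in DU145 was larger than that of each of the tested genes around it. The 10 tested genes on either side of it on chromosome 13 (101053776 to 109786583) had a median of 0.20 (log2 fold change, DU145), with 6 of the 20 called higher (12.4% of all tested genes) and the largest absolute value at 5.12, against 6.11 for EFNB2. Around EPHB6 on chromosome 7 (141704003 to 143408856), 11 of the 20 neighbours were called higher in PC3, against 18.6% of all tested genes. Their median was 1.70 and their largest absolute value 9.39, against 6.88 for EPHB6 itself. The last of these neighbours is EPHA1, a described gene with a PC3 log2 fold change of 1.79. Around EPHA1, where EPHB6 is a neighbour in turn, 5 of 20 were called higher in PC3, with a median of 0.14. Around EPHB1 on chromosome 3, 2 of 20 were called higher in PC3, with a median of −0.46. The 20 neighbours of EPHB4 on chromosome 7 (100572232 to 101097967) had a PC3 median of −0.64, against −0.82 for EPHB4 itself. None of these was called higher in PC3. Their DU145 median was −0.36, against −0.29 for EPHB4. Whether the lower EPHB4 values were particular to that gene was not tested. Neighbour values of the remaining described genes are not given here.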

How the data were processed

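Bulk RNA-seq libraries of docetaxel resistant and sensitive DU145 and PC3 cells (8 in 4 groups) were grouped by their labels. The deposited values are raw counts of reads per gene in a separate file for each library, which the authors obtained after Bowtie alignment to hg38 and did not normalize. The sources used here do not give the Bowtie version, the counter, its annotation and strand setting, or how reads with several matches were treated. Reads had no molecular identifiers, so intervals and floors cover counting error only. The authors' single cell data were not analysed here.

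Shown values are CPM, the count divided by the library total of 31685148 to 43045127, and between genes CPM per kb of the union of exons (GENCODE 44). Genes passing filterByExpr (20238) were scaled by TMM and fitted in edgeR 4.0.16 (R 4.3.3) with a mean per group over all 8 libraries, common biological coefficient of variation 17.1%. Contrasts were tested by quasi-likelihood F, with p-values adjusted over all genes (Benjamini-Hochberg) and called under 0.05. The standard error of a log2 fold change was its size over the square root of F. With 2 libraries against 2, an exact permutation test cannot go below p = 0.333, so none is given.

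The 10 genes, the 12 other family genes, the 52 partners and the rules were chosen with earlier results of these data known. Named are all 10, every tested family gene, the 5 genes nearest to EFNB2 and, per line and direction, up to 6 partners with the largest change among called genes whose libraries did not overlap and whose mean reached 5 CPM. Rows overlapping one of the 10 genes are named from a mean of 0.5 CPM. Some genes that these rules name are not reported here. Promoters came from RefSeq. The gene test was tested on simulated data. Alternatives were RLE scaling, DESeq2 1.42.0, no filter, a filter of 1 CPM, fits on each line by itself, a block for replicate number, leaving out each library, an adjusted p under 0.01, a 2-fold limit, and the longest transcript as length. The marker sums and the counts at an unadjusted p were added after the data were seen.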

Additional observations from a re-analysis of the deposited data

Results flagged for a closer look

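For 2 of the described genes the order of resistant and sensitive libraries in CPM was opposite in the 2 lines, and the difference between the lines was not tested. Of all tested genes, 31.7% lay below in DU145 and 40.9% above in PC3, and the share with both was not computed. EPHA4 lay below in DU145 and above in PC3 in every resistant library, with a PC3 log2 fold change minus DU145 log2 fold change of 5.94. EFNA1 lay below in DU145 and barely above in PC3 in CPM, with a difference of 1.88, most of it from DU145. Its fitted log2 fold changes, −1.90 in DU145 and −0.02 ± 0.16 in PC3, had the same sign.

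Among the other family genes the PC3 change and the DU145 change differed by edgeR's test of that difference for 6 of 10, where 34.3% of all tested genes were called. Above 0, EPHB1 differed by 10.17 on the log2 scale (edgeR adjusted p = 3.25e-05), EFNA2 by 5.68 (0.0233), EPHB6 by 4.65 (0.0295), EFNB3 by 4.34 (1.4e-05) and EPHA7 by 2.02 (0.0385). EPHA10 differed by −3.71 (0.00013). The size for EPHB6 was 3.88 to 6.52, and for EPHA7 1.12 to 2.57, with each library left out. The EFNA2 call was lost without DU145 sensitive replicate 1, either PC3 sensitive library or PC3 resistant replicate 2 (edgeR adjusted p up to 0.0900), the EPHB6 call without either DU145 sensitive library (up to 0.227) and the EPHA7 call without 6 of the 8 libraries in turn (up to 0.386). EFNA2 had no count in PC3 sensitive libraries and EPHB1 no more than 3, so these sizes depend on the fit.

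Of the 51 tested partners, 27 differed between the lines, 14 above and 13 below 0. Among those named, the PC3 change minus the DU145 change was 6.90 for VAV3 (edgeR adjusted p = 0.0110, lost without DU145 sensitive replicate 1 at 0.108, with sizes of 6.002 to 11.34 as each library was left out), 3.47 for KALRN (edgeR adjusted p = 0.000307), 3.26 for NGEF (0.000125), 1.57 for FYN (0.00833), 1.34 for PTPN1 (0.000238), 1.25 for ANKS1A (0.0016), 1.02 for PIK3R1 (0.0165) and 0.96 for PICK1 (0.0189). It was −2.02 for SIPA1L1 (0.000102), −1.98 for MMP14 (0.00372), −1.38 for PARD6A (0.0110), −1.15 for CBL (0.00459), −1.11 for SHC1 (0.00566), −0.98 for CHN1 (0.0116), −0.85 for NCK1 (0.00719) and −0.66 for VAV2 (0.0334). The calls of PICK1, PIK3R1, CHN1 and VAV2 were each lost when at least 1 library was left out.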

How the results depend on the processing

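Of 119 tested gene results, 94 kept their call in every alternative fit that gave a value, 25 changed it in at least 1 and 0 reversed. Of the 76 called, 61 passed at an adjusted p under 0.01 and 54 with a 2-fold limit. For the 10 described genes, those called lower in PC3 resistant cells numbered 1 at an adjusted p under 0.01 and 0 with a 2-fold limit (main 2), and those lower in PC3 than DU145 among resistant cells numbered 1 with a 2-fold limit (main 2). With each library left out, 1 to 3 were higher and 1 to 2 lower in PC3. For the other family genes, 1 was higher in DU145 with no low count filter and 1 in a fit of DU145 alone (main 0), 0 to 1 with each library left out, and 3 were higher in PC3 with a filter of 1 CPM (main 6). Those whose change was above in PC3 against DU145 numbered 2 with a filter of 1 CPM, 2 at an adjusted p under 0.01 and 2 to 4 with each library left out (main 5). Those below numbered 2 with DESeq2, 2 with no low count filter, 2 with the replicate block and 1 to 2 with each library left out (main 1). Partners with a 2-fold limit numbered 5 higher and 5 lower in DU145 (main 9 and 11), 8 higher and 2 lower in PC3 (main 15 and 11) and 6 below in the difference between the lines (main 13). At an adjusted p under 0.01, 7 were lower in DU145 and 6 below in that difference, which had 8 to 12 with each library left out. With the length of the longest transcript, the ratio of EFNB2 to EPHB4 was 0.843 in DU145 resistant, 0.383 in PC3 resistant and 0.180 in PC3 sensitive cells. Fewer genes can pass a stricter filter or limit by construction, and the cause of the other moves was not tested. Shares of all tested genes called in these alternatives are not given, so the counts are not set against them. A group left with 1 library was assumed to vary like the others.

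Replicate numbers are shared across groups in the labels, which do not say what they mark. Same-numbered libraries correlated in their deviations at 0.32 in DU145 and 0.086 in PC3, with 2 pairs, so no pairing was established. With the replicate block, 4 of the 10 described genes were higher and 2 lower in DU145 (3 and 2 in PC3). Of the partners, 10 were higher and 14 lower in DU145 (20 and 12 in PC3). The share of all tested genes called in that fit is not given, so nothing is read from these counts.

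Depth limits EPHA1, EFNA2, EPHA3 and EPHA8. It also limits EFNB2, EFNB3, EPHA4, EPHA5, EPHA6, EPHA7, EPHA10, EPHB1 and EPHB6 in the cells where they were under 1 CPM. EFNB3 had 30 and 26 counts in DU145 resistant libraries, and EPHA10 had 9 and 4 in PC3 resistant libraries. A group's floor of 3 counts was 0.0368 to 0.0453 CPM.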
